A study of Mus musculus with 6 samples.

Results

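The conjugation enzymes of the liver make lipid-soluble compounds soluble in water so that they can leave the body in bile or urine. UDP-glucuronosyltransferases (Ugt) attach glucuronic acid, glutathione S-transferases (Gst) attach the tripeptide glutathione, and sulfotransferases (Sult) attach a sulfate group. Their substrates include drugs, bilirubin, steroid and thyroid hormones, bile acids and the reactive aldehydes of lipid peroxidation. The genes were taken by name from the count table: symbols starting with Ugt1, Ugt2, Ugt3 or Sult, and Gst followed by a class letter (a, m, p, t, k, z or o) and a digit, leaving out pseudogene names with -ps. The rule found 64 genes of 54532 listed, 21 Ugt, 22 Gst and 21 Sult genes.

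The livers came from male C57BL/6J mice made insulin resistant (IR) with a high-fat diet (HFD), which was started at 8 weeks of age and fed for 6 weeks. After fasting for 16 h, 3 mice received 0.75 units of insulin per kg body weight by intraperitoneal injection and 3 received bovine serum albumin (BSA), and livers were collected 6 h later. All 6 mice were on the HFD, and no chow-fed or unfasted group was analysed here. The groups are named IR insulin and IR vehicle, and their comparison asks which liver transcripts respond to insulin during insulin resistance.

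Libraries held 18449986 to 21827619 counts. Levels are in CPM, read counts relative to library size after scaling by the trimmed mean of M values (TMM), and a positive log2 fold change means a higher level with insulin. The libraries of vehicle replicates 2 and 3 stood apart from the other 4. In vehicle replicate 2, 16470 genes had a count, against 18389 to 18874 in the others. The deviation of a gene in that library from the other libraries fell with its GC content (Spearman's rho of −0.67 across genes tested, a description). Vehicle replicate 3 held 24.7 CPM of Cux2, which is female-biased in mouse liver, whereas no other library passed 0.138 CPM. Its level of the male-biased Cyp7b1 was 65.2 CPM, against 422 to 1150 CPM in the others. Cyp7b1 does not stand for its list, since 10 male-biased genes summed to 7952 CPM in that library. Of these 10 genes, 9 peaked in vehicle replicate 2, whose sum was the highest (13166 CPM). The sums of vehicle replicate 1 and the insulin libraries ranged from 4327 to 7108 CPM. Genes of the Y chromosome were present and Xist had 0 or 1 count in all 6 libraries, as the label of male mice requires. Over the log2 CPM of all genes tested, vehicle replicate 1 correlated with the 3 insulin libraries at r = 0.982 to 0.988 (a description). Its correlations with the other vehicle libraries were lower, at 0.921 and 0.948. Globin transcripts of red cells moved in the same direction as many conjugation genes. Of 7 erythroid markers 5 were tested, and 4 of these passed the criteria below, all lower with insulin. All 5 tested had their highest level in vehicle replicate 2, and 0 passed without that library. Summed over the list, erythroid markers came to 1588 CPM in that library and 312 to 627 CPM in the others. In vehicle replicate 3, 9 of 10 periportal hepatocyte markers had their highest level. Of 10 pericentral hepatocyte markers, 5 peaked in vehicle replicate 2 and 1 in vehicle replicate 3. The pericentral sum was highest in vehicle replicate 2, at 19170 CPM, and ranged from 10497 to 12880 CPM elsewhere. The part of these markers in the results was not tested. Hepatocyte markers were abundant in all 6 libraries, but not evenly. Their sum was highest in vehicle replicate 2 (174334 CPM) and next in vehicle replicate 3 (111094 CPM). It ranged from 77960 to 91630 CPM in the others, and its part in the results was not tested. In whole liver, fewer cells of a type and less RNA per cell cannot be told apart.

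A stretch of chromosome 5 carries most of the genes on which the results turn. Between positions 86889767 and 87591594 of mouse build GRCm38 (702 kb) lie all 10 Ugt2 genes of the rule together with Sult1b1, Sult1d1 and Sult1e1, 13 members of the families in all. Promoter windows of 300 bases (250 before and 50 after the start of the gene, RefSeq, build GRCm38.p6) were found for 56 of the 64 genes. Windows of Ugt2b5, Ugt2b38 and Ugt2b36 are shown because their letters are the most alike among the tested Ugt2 genes that are abundant, and the first also shares exon sequence with the second. All lie on the minus strand and are written 5′ to 3′. Capitals mark the longest run common to all 3, 22 bases that end 7 bases before the start of Ugt2b5 and 10 before that of the other two.
Ugt2b5 (chr5:87140291-87140590): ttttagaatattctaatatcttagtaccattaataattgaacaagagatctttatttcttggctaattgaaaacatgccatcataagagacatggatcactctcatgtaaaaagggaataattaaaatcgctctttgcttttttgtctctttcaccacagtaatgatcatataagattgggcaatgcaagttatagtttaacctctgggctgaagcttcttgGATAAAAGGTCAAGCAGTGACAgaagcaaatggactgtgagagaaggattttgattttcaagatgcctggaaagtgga
Ugt2b38 (chr5:87424154-87424453): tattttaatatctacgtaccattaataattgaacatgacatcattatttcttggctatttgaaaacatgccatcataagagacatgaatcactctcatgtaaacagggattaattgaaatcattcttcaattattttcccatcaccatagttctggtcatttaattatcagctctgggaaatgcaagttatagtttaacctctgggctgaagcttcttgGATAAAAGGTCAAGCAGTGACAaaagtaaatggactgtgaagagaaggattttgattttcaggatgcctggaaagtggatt
Ugt2b36 (chr5:87092506-87092805): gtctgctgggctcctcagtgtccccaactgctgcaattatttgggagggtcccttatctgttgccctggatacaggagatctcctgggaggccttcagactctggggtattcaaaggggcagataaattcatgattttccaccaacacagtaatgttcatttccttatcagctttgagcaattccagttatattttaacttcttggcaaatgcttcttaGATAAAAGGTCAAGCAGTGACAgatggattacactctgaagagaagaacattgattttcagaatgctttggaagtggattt
The run was present in the windows of 4 genes among 32851 windows searched, these 3 and Ugt2b37. Aligned over their length, the windows of Ugt2b5 and Ugt2b38 were 84.2% identical, and those of Ugt2b5 and Ugt2b36 were 61.4% identical.

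The window of Ugt2a3 is given because this gene had the smallest p of all members. Capitals mark the letters GTTAAT, one arm of the palindrome bound by HNF1, a hepatocyte transcription factor, and this motif was added after values had been seen.
Ugt2a3 (chr5:87337146-87337445, minus strand): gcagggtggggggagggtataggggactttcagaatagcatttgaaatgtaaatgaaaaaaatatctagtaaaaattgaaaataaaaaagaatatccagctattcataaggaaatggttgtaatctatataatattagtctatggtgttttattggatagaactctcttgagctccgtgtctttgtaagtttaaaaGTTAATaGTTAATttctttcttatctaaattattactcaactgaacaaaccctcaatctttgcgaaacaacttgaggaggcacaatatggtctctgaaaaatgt
Letters GTTAAT on either strand were in 14 of the 67 windows of members (20.9%) and in 7.10% of all windows. Among tested members they were in 8 of 46 windows (17.4%). Of these, tested Ugt2 genes had them in 1 of 8 windows (12.5%), that of Ugt2a3, and tested Gst genes in 1 of 24 (4.17%). The core of the antioxidant response element, TGACNNNGC, was in 3 windows of members (4.48%), those of Gsta3, Gstm5 and Gstm7, and in 12.4% of all windows. The core of the dioxin response element, GCGTG, was in 13 windows of members (19.4%) and in 32.4% of all windows. No tested Ugt2 gene had either core in its window. These matches describe letters within 300 bases and no more.

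Of the 64 genes, 42 passed the filter on low counts and were tested: 15 Ugt, 19 Gst and 8 Sult genes. The other 22 did not pass it, and 10 of them had no count in any library: Ugt2a1, Ugt2a2, Gstt4, Sult1c1, Sult2a3, Sult2a4, Sult2a5, Sult2a6, Sult3a2 and Sult6b2. A count of 0 allows up to 3 counts, or 0.130 to 0.184 CPM depending on the library, and covers counting error only. The remaining 12 held between 1 and 212 counts over all libraries. Sult2a1 to Sult2a6 and the Sult3a genes, which are female-predominant in mouse liver, had at most 4 counts in any library, vehicle replicate 3 included.

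Per kilobase of transcript, the most abundant member was Sult2a8 (612 CPM per kb over all 6 libraries), a sulfotransferase for bile acids, followed by Gstp1 with 580 and Ugt2b5 with 442 CPM per kb. Sult1a1, the main phenol sulfotransferase, had 368 CPM per kb and Ugt2b36 had 329. Gsta3 with 277 and Gstm1 with 273 CPM per kb were the leading alpha and mu class transferases. Ugt1a1, the enzyme that conjugates bilirubin, had 26.6 CPM per kb. Gstp1, Gstm1, Ugt2b5 and all Ugt1a genes share sequence with relatives, as given below, so their rank is uncertain. The rank of Sult2a8 is uncertain too, because it depends on vehicle replicate 2. That library held 3729 CPM of Sult2a8, against 698 to 947 CPM in the others.

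Conjugation genes were lower in the livers of insulin-injected mice than in vehicle mice more often than higher. No member, and no gene of the 13377 tested, differed at an adjusted p under 0.05 in the quasi-likelihood test of edgeR (lowest adjusted p 0.852 for any member), and the count was also 0 with DESeq2 and voom. An unadjusted p under 0.05 was found for 383 genes with edgeR, 507 with DESeq2 and 213 with voom. The criteria of the study, a log2 fold change of 0.35 or more in either direction together with an unadjusted p under 0.05, were met by 9 of the 42 tested members (21.4%) and by 383 of all genes tested (2.86%). All 9 were lower with insulin: Ugt2a3, Sult1b1, Ugt2b5, Ugt2b36, Ugt2b1, Ugt1a9, Gsta4, Sult2a8 and Gsta2. Of all genes, 249 were lower (1.86%) and 134 higher (1%); after a correction for GC content these were 379 (2.83%) and 93 (0.695%). The insulin and vehicle values did not overlap for 10 members, all lower, where 6.04% of all genes were lower and 6.25% higher without overlap, 12.3% in all. The fitted change was below 0 for 33 of 42 members, with a median of −0.42, against −0.02 over all genes tested. The adjusted p of each of the 9 was 0.852, and errors of fold changes below are standard errors from edgeR with n = 3 mice per group. Family medians were −0.61 for Ugt, −0.33 for Gst and −0.42 for Sult genes.

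The number of members past the criteria moved with the libraries and the method, and so did the share of all genes. It was 12 with DESeq2 (3.79% of all genes), 10 with RLE size factors (3%), 5 with upper-quartile scaling (2.61%), 4 with voom and sample weights (1.59%) and 8 with the replicate number as a block (2.4%). Without the filter on low counts it was 11 of 54 (3.22%). With the correction for GC content it was 9 (3.53%), and 7 (5.21%) with that correction and vehicle replicate 3 left out. Leaving out vehicle replicates 1, 2 and 3 in turn gave 15 of 45, 9 of 43 and 11 of 42 tested members, where 9.81%, 3.69% and 6.51% of all genes passed. Leaving out insulin replicates 1, 2 and 3 gave 3 of 44, 4 of 43 and 4 of 45, where 0.727%, 1.05% and 0.875% of all genes passed. The members were not always the same. Of the 9, only 2, 3 and 1 passed without insulin replicates 1, 2 and 3, and 9, 7 and 6 without vehicle replicates 1, 2 and 3. Voom kept 2 of them, upper-quartile scaling 5, the replicate block 6 and the GC correction 7, or 4 without vehicle replicate 3 as well.

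**Figure D1:**
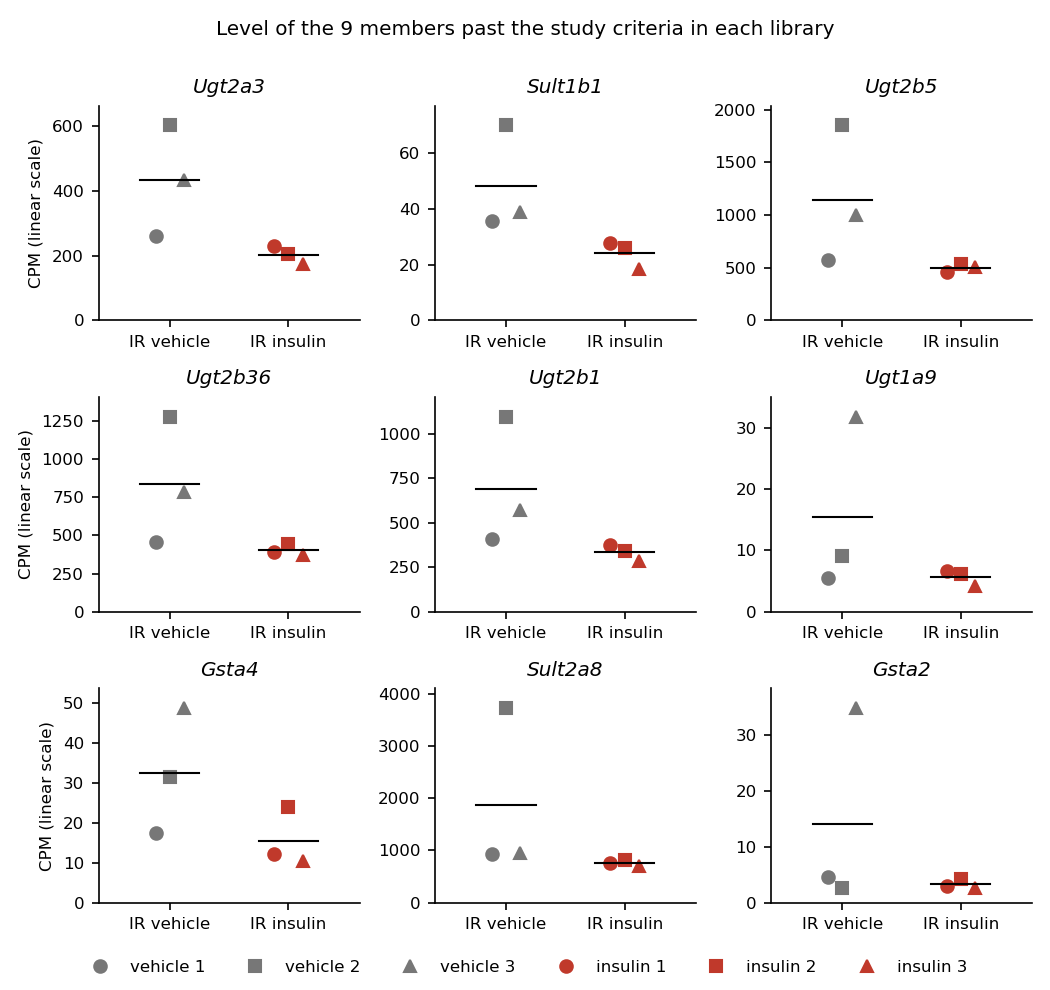
CPM (linear axis from 0) of the 9 members that passed the criteria of the study, in 3 IR vehicle (grey) and 3 IR insulin (red) libraries; marker shapes give replicates 1 to 3 and lines the group means. The highest vehicle value belongs to replicate 2 for Ugt2a3, Sult1b1, Ugt2b5, Ugt2b36, Ugt2b1 and Sult2a8, and to replicate 3 for Ugt1a9, Gsta4 and Gsta2.

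All 9 genes are protein coding, and on chromosome 5 of GRCm38 they occupy 86916638 to 86926530 (Ugt2b1), 87065927 to 87092555 (Ugt2b36), 87124960 to 87140318 (Ugt2b5), 87324972 to 87337195 (Ugt2a3) and 87513339 to 87538195 (Sult1b1), all on the minus strand. Ugt1a9 spans 88070800 to 88218997 on chromosome 1, Gsta4 78182774 to 78209349 and Gsta2 78331018 to 78355788 on chromosome 9, and Sult2a8 14410686 to 14446769 on chromosome 7.

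The Ugt2 enzymes, which glucuronidate steroids, bile acids and many drugs, held the largest group of genes past the criteria. Ugt2a3 measured 262, 603 and 433 CPM in vehicle replicates 1, 2 and 3 and 229, 205 and 175 CPM in insulin replicates 1, 2 and 3. Every insulin value was below every vehicle value, and the log2 fold change was −1.09 ± 0.33 (SE, n = 3 per group). The gene met the criteria in each of the 14 alternative fits, with log2 fold changes from −1.35 to −0.56 and adjusted p from 0.473 to 1. Vehicle replicate 1, the nearest vehicle mouse, exceeded the insulin mean by 0.36 on the log2 scale.

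Ugt2b5 was the most abundant Ugt member. Its vehicle values were 577, 1851 and 996 CPM and its insulin values 457, 535 and 509 CPM, with a log2 fold change of −1.19 ± 0.42. Ugt2b36 measured 455, 1282 and 786 CPM in vehicle mice and 393, 446 and 369 CPM after insulin (−1.06 ± 0.38). Ugt2b1 measured 409, 1097 and 569 CPM in vehicle mice and 376, 342 and 282 CPM after insulin (−1.05 ± 0.38). In all 3 genes the groups did not overlap, vehicle replicate 2 was the highest library, replicate 3 the next, and replicate 1 lay just above the insulin mice, by 0.21, 0.18 and 0.30 on the log2 scale for Ugt2b5, Ugt2b36 and Ugt2b1.

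Those changes shrank without vehicle replicate 2 and kept their direction. The log2 fold changes were then −0.65 for Ugt2b5, −0.62 for Ugt2b36, −0.55 for Ugt2b1 and −0.77 for Ugt2a3, and all 4 met the criteria. With the correction for GC content of all 6 libraries they were −0.82, −0.71, −0.70 and −0.83 in the same order, and all 4 met the criteria. With that correction and without vehicle replicate 3, Ugt2b1 and Ugt2a3 met the criteria, and Ugt2b5 and Ugt2b36 missed them. Leaving out any single insulin mouse took Ugt2b5, Ugt2b36 and Ugt2b1 out of the criteria, with changes from −1.24 to −0.93. Under voom with sample weights these 3 genes missed the criteria as well (−0.50 for Ugt2b5, −0.43 for Ugt2b36 and −0.45 for Ugt2b1), and Ugt2a3 met them (−0.56).

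The remaining Ugt2b genes did not pass. Ugt2b35 measured 101, 272 and 151 CPM in vehicle mice and 59.0, 80.6 and 138 CPM after insulin (−0.92 ± 0.44), and insulin replicate 3 lay inside the vehicle range. Ugt2b34 values did not overlap, with −0.61 ± 0.34, and Ugt2b38 values did (−0.66 ± 0.38). Ugt2b37, at 3.03 to 14.1 CPM, was the one Ugt2b gene with a fitted change above 0 (0.21 ± 0.54). Of the windows of 75 bases in their exons, 30.4% in Ugt2b5, 28.0% in Ugt2b38 and 6.37% in Ugt2b37 also occur in a relative, so reads can be split among these genes. The Ugt2b sum is less open to this. It was 1963, 5369 and 2893 CPM in vehicle mice and 1690, 1752 and 1650 CPM after insulin, a log2 ratio of group means of −1.01, and −0.52 without vehicle replicate 2.

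The GC content of the Ugt2b genes was low, from 38.8% to 40.2%. In vehicle replicate 2, the median Ugt2b gene lay 1.43 above the median of the other libraries on the log2 scale, and the 489 tested genes in the same range of GC content lay 0.94 above. In vehicle replicate 3 the Ugt2b genes lay 0.57 above the other libraries, whereas the genes in that range of GC content lay 0.11 below (a deviation of −0.11). Over the 42 tested members, the deviation in vehicle replicate 2 fell with GC content (rho = −0.67, a description, since members share the library). In vehicle replicate 3 rho was 0.21.

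**Figure D2:**
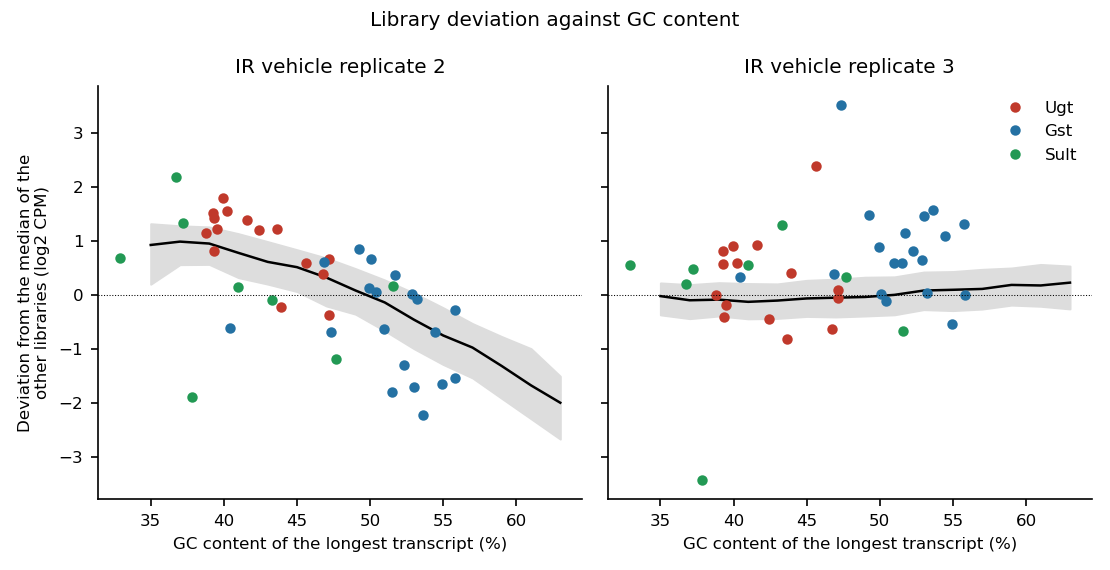
Deviation of each tested member from the median of the other 5 libraries (log2 CPM) in vehicle replicates 2 and 3, against the GC content of its longest transcript; the line and band give the median and the interquartile range of all tested genes in bins of 2 percentage points. In replicate 2 most Ugt2b genes (red, near 40% GC) lie above the falling line, and in replicate 3 the line is nearly flat while Gsta2 (3.51) and Ugt1a9 (2.38) lie far above it.

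On the chromosome 5 stretch, 11 of the 13 members were tested, 9 had a fitted change below 0, and 5 met the criteria (Ugt2b1, Ugt2b36, Ugt2b5, Ugt2a3 and Sult1b1). Over all 13377 genes tested, 6876 had a fitted change below 0 and 2.86% met the criteria. The 5 other tested genes in the stretch were pseudogenes at 0.184 to 3.34 CPM, and none met the criteria. Among them, Gm18635, named after its values were seen, had a log2 fold change of −1.41 ± 0.62, further from 0 than that of any tested member there. Ugt2b37 and Sult1e1 were the 2 members there with a fitted change above 0.

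The Ugt1a genes share their last exons and differ in their first, so counts between them are uncertain: 59.9% of the exonic bases of Ugt1a9 and 58.9% of those of Ugt1a1 are shared on the same strand. Ugt1a1 measured 63.0, 48.4 and 65.1 CPM in vehicle mice and 61.5, 66.0 and 50.5 CPM after insulin, with a log2 fold change of 0.01 ± 0.23 whose sign turned under 6 alternatives. Ugt1a9 measured 5.55, 9.15 and 31.9 CPM in vehicle mice and 6.57, 6.06 and 4.11 CPM after insulin (−1.48 ± 0.61). The groups overlapped, and the difference rested on vehicle replicate 3: without it the change was −0.40 and missed the criteria. Ugt1a9 also missed them without any single insulin mouse, with −1.601 to −1.29.

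Ugt1a7c, named after its values were seen, did not pass the filter on low counts. It had 3, 131 and 66 counts in the vehicle libraries and 5, 3 and 4 in the insulin libraries, so that vehicle replicates 2 and 3 were high and replicate 1 was like the insulin mice. Without the filter its log2 fold change was −4.29 (edgeR, adjusted p = 0.803). Ugt1a6b, at 20.3 to 38.7 CPM, had a log2 fold change of −0.47 ± 0.25. Summed over all 9 genes, the Ugt1a level was 108, 113 and 131 CPM in vehicle mice and 101, 104 and 84.3 CPM after insulin, a log2 ratio of −0.28 with no overlap.

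Ugt3a2 measured 521, 1014 and 367 CPM in vehicle mice and 498, 439 and 434 CPM after insulin. Vehicle replicates 2 and 3 lay on either side of the insulin mice, and the log2 fold change of −0.47 ± 0.38 became 0.05 without vehicle replicate 2. Ugt3a1 showed the same order of libraries, with 250 CPM in vehicle replicate 2 and 63.1 in replicate 3 against 99.5 to 111 with insulin.

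**Figure D3:**
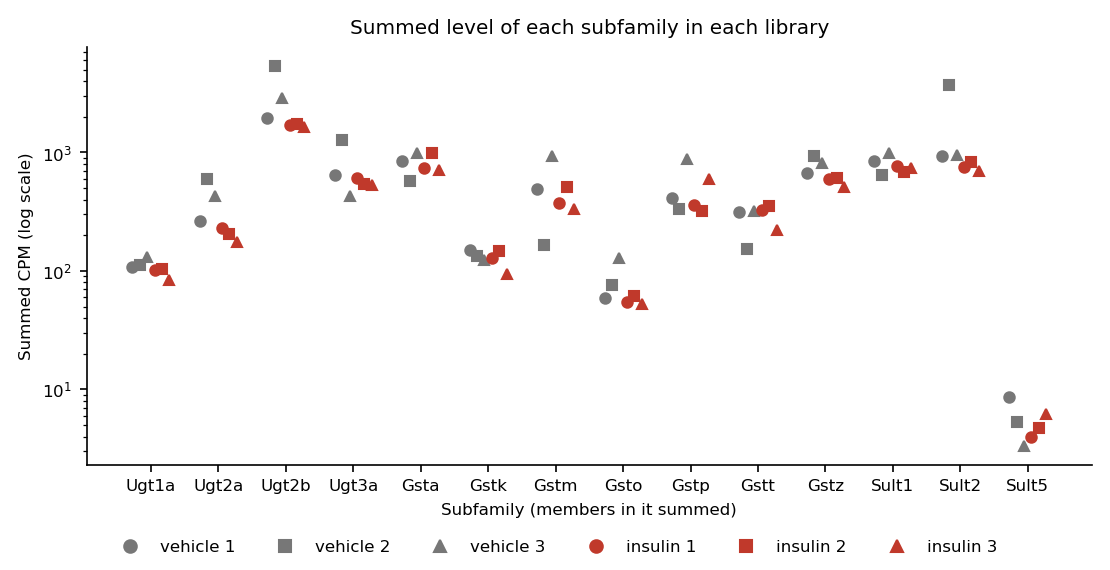
Summed CPM (log axis) of all members of each subfamily with a tested gene in the 3 IR vehicle (grey) and 3 IR insulin (red) libraries; marker shapes give replicates 1 to 3. Vehicle replicate 2 (squares) is the highest library for Ugt2a, Ugt2b, Ugt3a, Gstz and Sult2 and the lowest for Gsta, Gstm, Gstt and Sult1, and vehicle replicate 3 (triangles) is the highest for Ugt1a, Gstm, Gsto, Gstp and Sult1.

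Among the sulfotransferases, Sult1b1, which sulfates thyroid hormones and small phenols, was lower with insulin. It measured 35.7, 70.0 and 38.8 CPM in vehicle mice and 27.8, 26.1 and 18.5 CPM after insulin, without overlap (a log2 fold change of −0.997 ± 0.32). It met the criteria in 13 of 14 alternatives, and missed them without insulin replicate 3 (−0.82). Without vehicle replicate 2 it was −0.62. Its neighbour Sult1d1, a sulfotransferase for catecholamines, measured 207, 332 and 304 CPM in vehicle mice and 223, 156 and 166 CPM after insulin. Insulin replicate 1 lay above vehicle replicate 1, and the change was −0.63 ± 0.27.

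Sult2a8 measured 925, 3729 and 947 CPM in vehicle mice and 754, 823 and 698 CPM after insulin. The groups did not overlap, but the level in vehicle replicate 2 was far above all the rest (−1.30 ± 0.55). Without that library the change was −0.30, and with the correction for GC content of all libraries −0.74, and in both it missed the criteria. It also missed them without any single insulin mouse (−1.36 to −1.22). Sult2a7, at up to 3.72 CPM, did not overlap either (−0.66 ± 0.34).

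Sult1a1 measured 589, 240 and 647 CPM in vehicle mice and 513, 493 and 547 CPM after insulin, so that only vehicle replicate 2 stood apart, and it was low (0.07 ± 0.37). Sult5a1, at 3.34 to 8.67 CPM, had a log2 fold change of −0.22 ± 0.40. Sult1e1, the estrogen sulfotransferase, was named after its values were seen because it ran against the others. It measured 7.30, 1.84 and 0.572 CPM in vehicle mice and 9.59, 7.10 and 4.11 CPM after insulin, with vehicle replicate 1 inside the insulin range (1.1 ± 0.79). Without vehicle replicate 1 it was 2.54 higher on the log2 scale, which met the criteria. As a family, Sult genes summed to 1776, 4384 and 1948 CPM in vehicle mice and 1536, 1514 and 1443 CPM after insulin. Their log2 ratio was −0.85, and −0.31 without vehicle replicate 2.

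**Figure D4:**
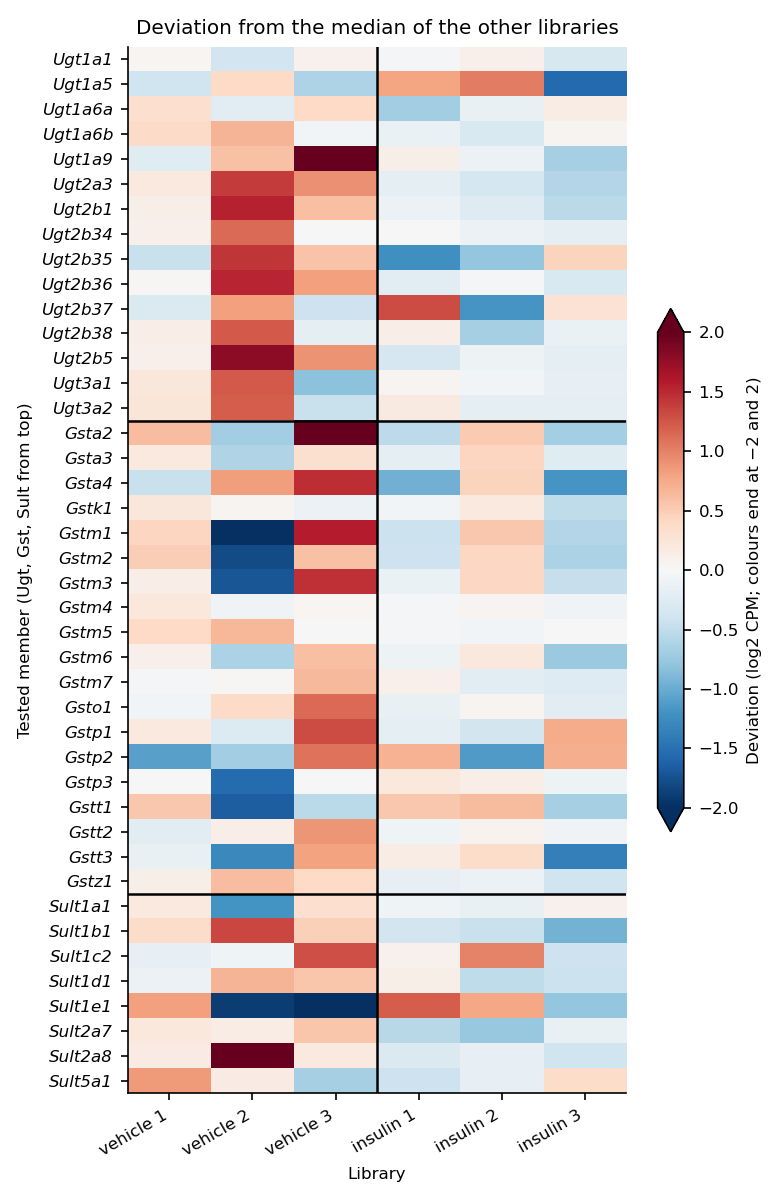
Deviation of the 42 tested members from the median of the other 5 libraries in each library (log2 CPM; red higher, blue lower; colours end at −2 and 2), with Ugt, Gst and Sult genes from top to bottom. The Ugt2b genes are red in vehicle replicate 2, most Gst genes are red in vehicle replicate 3, and Gstm1, Gstm2, Gstm3 and Gstt1 are dark blue in vehicle replicate 2.

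Among the glutathione transferases, 12 of 19 tested Gst genes had their highest level in vehicle replicate 3, against 2 in vehicle replicate 2, where 7 had their lowest. Gsta4, which conjugates reactive aldehydes from lipid peroxidation, measured 17.4, 31.4 and 48.8 CPM in vehicle mice and 12.3, 23.9 and 10.5 CPM after insulin. The groups overlapped, with a change of −1.06 ± 0.45, and of −0.65, outside the criteria, without vehicle replicate 3. It also missed them without vehicle replicate 2 (−1.08), insulin replicate 1 (−0.91) or insulin replicate 3 (−0.83). Gsta2, an inducible alpha class enzyme, measured 4.60, 2.64 and 35.0 CPM in vehicle mice and 2.97, 4.33 and 2.68 CPM after insulin. Only vehicle replicate 3 stood out; the change of −2.08 ± 0.89 was −0.13 without it, and it missed the criteria without any single insulin mouse as well (−2.32 to −1.94). Of the windows of 75 bases in its exons, 46.9% occur in relatives. Vehicle replicate 3 also held 5084 CPM of Cyp3a11 and 4.34 CPM of Cyp1a1, drug-metabolizing genes, against 475 to 1540 and at most 0.405 CPM in the other libraries. Cyp1a1 was named after its values were seen. Of 11 tested xenobiotic response genes, 6 had their highest level in vehicle replicate 3 and 2 in vehicle replicate 2. The part of these genes in the Gst values was not tested.

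The most abundant alpha class gene, Gsta3, measured 823, 541 and 904 CPM in vehicle mice and 720, 966 and 693 CPM after insulin (0.07 ± 0.29). Gstm1 measured 358, 77.0 and 786 CPM in vehicle mice and 265, 387 and 240 CPM after insulin, so that vehicle replicates 2 and 3 were the lowest and the highest library. Its change of −0.45 ± 0.68 became 0.45 without vehicle replicate 3 and −0.94 without vehicle replicate 2. All 7 Gstm genes had a fitted change below 0, between −0.45 and −0.05, and without vehicle replicate 3 this held for 3 of 7. Gstp1, a pi class enzyme, measured 403, 332 and 870 CPM in vehicle mice and 351, 312 and 588 CPM after insulin (−0.36 ± 0.43). It shares 57.7% of its exonic windows with Gstp2 and a pseudogene, and its change turned to 0.18 without vehicle replicate 3.

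Gstz1, which also serves in tyrosine breakdown as maleylacetoacetate isomerase, was the one tested Gst gene beside Gstm5 whose groups did not overlap. It measured 667, 942 and 808 CPM in vehicle mice and 594, 614 and 507 CPM after insulin (−0.49 ± 0.25). Gsto1, an omega class enzyme that reduces dehydroascorbate, measured 58.7, 76.3 and 129 CPM in vehicle mice and 54.7, 60.8 and 52.6 CPM after insulin (−0.65 ± 0.31), and −0.27 without vehicle replicate 3. Gstt1, a theta class enzyme, measured 238, 75.6 and 164 CPM in vehicle mice and 238, 256 and 150 CPM after insulin (0.43 ± 0.42). Gstk1, the kappa class enzyme of mitochondria and peroxisomes, measured 150, 134 and 124 CPM in vehicle mice and 129, 147 and 94.4 CPM after insulin (−0.14 ± 0.24). Summed over the family, Gst genes came to 2937, 2382 and 4192 CPM in vehicle mice and 2578, 2999 and 2510 CPM after insulin. The groups overlapped, and the log2 ratio of −0.23 was 0.02 without vehicle replicate 3.

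**Figure D5:**
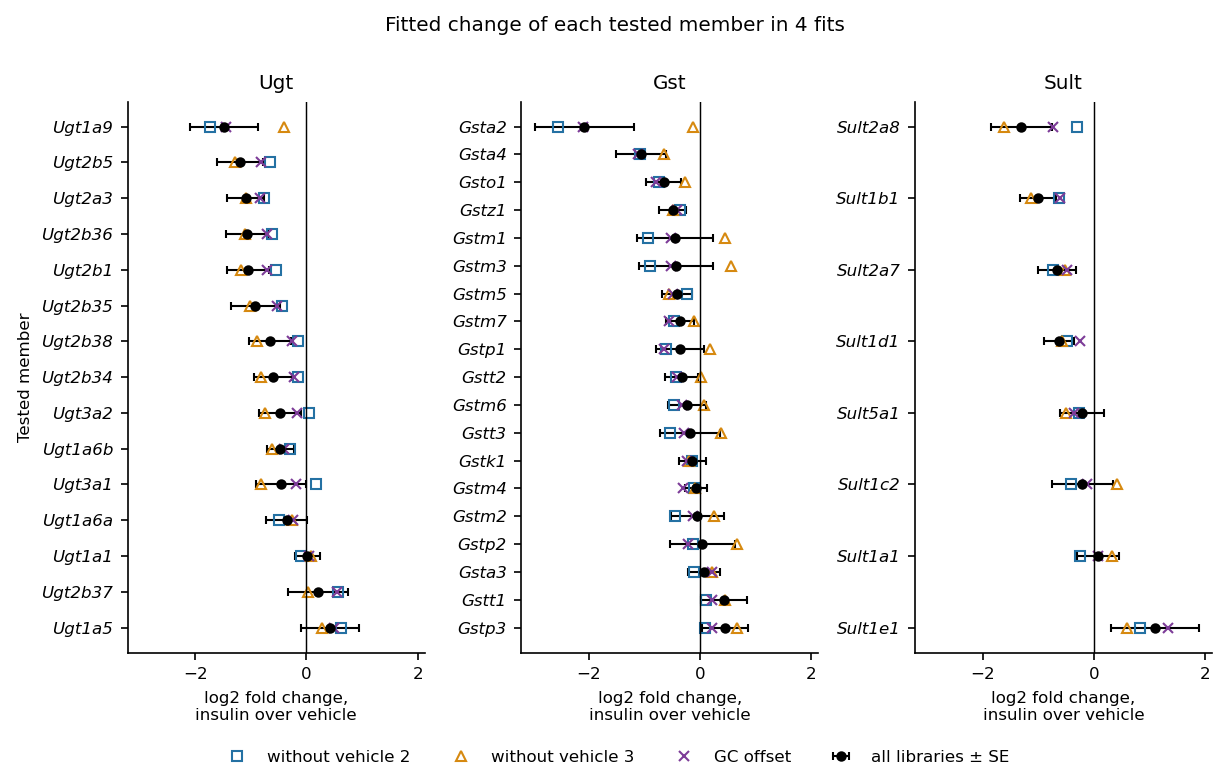
Log2 fold change (insulin over vehicle) of each tested member with all 6 libraries (black, ± SE from edgeR), without vehicle replicate 2 (squares), without vehicle replicate 3 (triangles) and with a correction for GC content (crosses). The Ugt2b changes below 0 move towards 0 without vehicle replicate 2, and those of Gsta2, Ugt1a9 and most Gstm genes move towards or past 0 without vehicle replicate 3.

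The family medians moved with the vehicle mouse left out. With all libraries, 12 of 15 Ugt, 15 of 19 Gst and 6 of 8 Sult genes had a fitted change below 0. Without vehicle replicate 2 the counts were 11, 17 and 7, with medians of −0.29, −0.45 and −0.36. Without vehicle replicate 3 they were 12, 8 and 5, with medians of −0.81, 0.08 and −0.51. With the correction for GC content and all libraries they were 12, 16 and 6, with medians of −0.27, −0.41 and −0.30, and with that correction and no vehicle replicate 3 they were 12, 11 and 5, with medians of −0.34, −0.06 and −0.13.

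In each list of genes for the supply or turnover of the donors of these reactions, 1 gene met the criteria. Of all genes tested, 2.86% did. The lists are so short that any 1 call exceeds that share, and the difference in share was not tested. Of 6 genes for UDP-glucuronic acid supply, 1 met the criteria: Ugp2, which makes UDP-glucose, measured 255, 594 and 391 CPM in vehicle mice and 231, 245 and 157 CPM after insulin, without overlap (−0.97 ± 0.35). All 6 had a fitted change below 0, from −0.97 to −0.01, with a median of −0.36. The change nearest 0 was that of Ugdh, UDP-glucose dehydrogenase, named after its values were seen (−0.01 ± 0.23). Of 8 genes for PAPS, the activated sulfate donor, 1 met the criteria: Slc35b3, a PAPS transporter of the Golgi, measured 15.5, 22.8 and 14.5 CPM in vehicle mice and 12.0, 10.95 and 9.64 CPM after insulin (−0.70 ± 0.26). Of 14 tested genes for glutathione supply and turnover, 1 did: Chac2, which degrades glutathione, fell by 0.90 on the log2 scale (SE 0.35). None of 7 tested genes for other glutathione transferases and none of 20 for other conjugation enzymes met the criteria. All of these calls had an adjusted p of 0.852.

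Among 18 tested regulators of drug-metabolizing genes, Ahr, the dioxin receptor, and Esr1, the estrogen receptor alpha, met the criteria and were lower with insulin. Of all genes tested, 2.86% met the criteria. As a list the regulators did not lean lower: 6 of the 18 had a fitted change below 0, with a median of 0.10. Ahr measured 19.1, 57.0 and 31.5 CPM in vehicle mice and 12.2, 12.8 and 23.2 CPM after insulin (−1.16 ± 0.44). Esr1 measured 12.0, 50.6 and 24.3 CPM in vehicle mice and 10.3, 13.0 and 12.8 CPM after insulin (−1.27 ± 0.48). Both groups of values overlapped, and vehicle replicate 2 was the highest library, as for 6 of the 7 Ugt2b genes. Of 11 tested xenobiotic response genes, 3 met the criteria and were lower: Tiparp, a target of Ahr (−0.71 ± 0.27), Cyp3a13 (−0.74 ± 0.30) and Cyp3a11 (−1.76 ± 0.71), the last with −0.60, outside the criteria, without vehicle replicate 3. Of these 11 genes, 7 had a fitted change below 0, with a median of −0.07. Without vehicle replicate 2, Ahr (−0.65), Esr1 (−0.59), Cyp3a13 (−0.59), Ugp2 (−0.61) and Chac2 (−0.73) missed the criteria, and without vehicle replicate 3 so did Chac2 (−0.74), Tiparp (−0.67) and Cyp3a13 (−0.59). With the correction for GC content, Chac2 (−0.58), Tiparp (−0.46), Cyp3a13 (−0.54) and Cyp3a11 (−1.69) missed them, and Ugp2, Slc35b3, Ahr and Esr1 met them.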

How the data were processed

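Liver RNA of 6 mice was sequenced, 3 per group, as grouped and numbered by the labels. The authors deposited raw read counts per gene, neither normalized nor pooled, made from NEBNext Ultra libraries sequenced on an Illumina HiSeq and aligned to mm10 with Bowtie2 2.2.3 per the labels and the study's methods. The counting program, its annotation and its use of strand were not given in the sources used here, and an aligner without splicing can lose reads across exon junctions.

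The edgeR quasi-likelihood F test (edgeR 4.0.16, R 4.3.3) was fitted to all genes kept by filterByExpr (minimum count 10, minimum total 15) with TMM scaling and no covariate, with Benjamini-Hochberg adjustment over 13377 genes. The study's own criteria were applied to this fit. The biological coefficient of variation between mice was 0.357. Reads were not collapsed by molecular identifiers, so floors cover counting error only.

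Alternatives were RLE and upper-quartile scaling, no filter, DESeq2 1.42.0, voom of limma 3.58.1 with sample weights, replicate number as a block, a GC offset (loess, span 0.5) and leaving out each library. The GC offset without vehicle replicate 3 was added after the data were seen. A deviation is log2 CPM (prior count 2) minus the median of the other 5 libraries. Coordinates and shared sequence (exact windows of 75 bases) came from GENCODE M21 (GRCm38), which held 54495 of 54532 listed genes. Genes named are members with an unadjusted p under 0.05, the 12 smallest p, the most abundant tested member of each subfamily, and pathway genes with an unadjusted p under 0.05; any other gene was chosen after its values were seen. The members and lists were chosen with earlier results of these data known. Library pairs differed by at least 27.1 in chi-square per degree of freedom, so none was a duplicate.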

Additional observations from a re-analysis of the deposited data

How the results depend on the processing

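The criteria were met by 9 members with all libraries and by 5 under upper-quartile scaling, 4 under voom with sample weights and 3 to 15 when 1 library was left out. Over all genes tested the 383 calls became 742 without the filter, 213 under voom, 711 under the GC offset without vehicle replicate 3, and 99 to 1349 when 1 library was left out, the highest count without vehicle replicate 1 and the lowest without insulin replicate 1. No gene had an adjusted p under 0.05 under any alternative.

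Medians here are over the genes that each alternative tested. The median change of the Gst genes ran from −0.46 to 0.075 when 1 library was left out. That of the Sult genes was −0.30 under the GC offset, −0.13 with the offset and no vehicle replicate 3, −0.61 without the filter, which adds Sult genes of very low count (−0.39 over the 8 genes tested with the filter), and −0.58 to −0.34 when 1 library was left out. The log2 ratio of the summed Sult level ran from −1.08 to −0.31. Of the 22 named members, 14 kept their direction under all 14 alternatives. Leave-one-out values of the other 8 ran from −0.12 to 0.22 for Gsta3, −0.29 to 0.030 for Gstk1, −0.94 to 0.45 for Gstm1, −0.68 to 0.18 for Gstp1, −0.25 to 0.32 for Sult1a1, −0.50 to 0.20 for Sult5a1, −0.11 to 0.13 for Ugt1a1 and −0.75 to 0.045 for Ugt3a2. Directions also turned under voom for Gsta3 (−0.021), Sult1a1 (−0.15) and Ugt1a1 (−0.029), for Ugt1a1 with DESeq2 (−0.00025) and RLE size factors (−9.96e-05), and for Gstm1 with the GC offset and no vehicle replicate 3 (0.26). The causes were not tested.

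Deviations of same-numbered libraries from their group means correlated at −0.04, 0.07 and 0.02. Within the vehicle group, replicates 2 and 3 correlated at −0.80 and replicates 1 and 2 at −0.55. With such outlying libraries these values cannot tell whether replicate numbers pair the mice. With the replicate block 321 genes met the criteria, 118 of them lower, and 8 members did, 7 lower and Sult1e1 higher.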
